A study of Homo sapiens with 15 samples.

Results

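Cholesterol and fatty acids are built from acetyl-CoA, and the genes of both routes were followed here as 1 fixed list of 31 genes in RNA-seq of human H1299 cells. The list was matched by gene symbol, and all 31 genes were found among the 61552 gene IDs of the count files. H1299 is a line from a lung tumour that makes no p53 of its own, and every group consisted of these cells overexpressing a vector or a p53 construct, as named in the labels. In the libraries of 2023 the cells carried a control vector (Ctrl, n = 3) or wild-type p53 (WT, n = 3). In the libraries of 2022 they carried p53, LLPSEp53_1 or LLPSEp53_2 (n = 3 each), and no vector control of that year was analysed here. LLPSEp53_1 and LLPSEp53_2 keep the names the labels use, in a study of p53 phase separation and transactivation. The labels do not state the dose or duration of overexpression, or whether the cells were pooled or cloned. The labels place p53 replicate 2 in a different batch from the other libraries of 2022.

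Sterol synthesis is governed by SREBP transcription factors, encoded by SREBF2 and SREBF1, which are held in the endoplasmic reticulum by INSIG proteins when cholesterol is plentiful and are cleaved and sent to the nucleus when it is scarce. SREBP2 mainly drives the mevalonate and cholesterol enzymes, and SREBP1 mainly the fatty acid enzymes. The liver X receptors (LXR) respond to oxidised sterols and induce the exporters ABCA1 and ABCG1 and the ubiquitin ligase MYLIP, which lowers sterol uptake. In other systems p53 has been reported to induce ABCA1 and LPIN1 and to restrain SREBP2, so the family is a known point of contact between p53 and lipid metabolism.

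Promoters of 6 members are shown first, because SREBP is known to bind a sterol regulatory element (SRE) together with NF-Y at a neighbouring CCAAT box. The windows run from 250 bases before to 50 bases after a start site, are written 5′ to 3′ in the direction of transcription, and come from RefSeq on GRCh38.p14. Capitals mark the SRE-like letters TCACNCCAC and the letters CCAAT, searched on both strands, so that a CCAAT on the opposite strand reads ATTGG. SREBF2 is the SREBP2 gene, MSMO1 and MVK are the 2 members lowest in p53 replicate 2 relative to the other p53 libraries, HSD17B7 is the member called between WT and Ctrl, and MYLIP and ABCA1 are LXR targets.
SREBF2 (chr22:41832855-41833154, plus strand): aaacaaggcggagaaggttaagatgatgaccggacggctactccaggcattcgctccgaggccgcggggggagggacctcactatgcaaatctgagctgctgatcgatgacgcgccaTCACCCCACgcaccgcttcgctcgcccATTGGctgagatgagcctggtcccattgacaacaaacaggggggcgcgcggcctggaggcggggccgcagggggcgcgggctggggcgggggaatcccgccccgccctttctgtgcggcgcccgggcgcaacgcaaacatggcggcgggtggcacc
MSMO1 (chr4:165327419-165327718, plus strand): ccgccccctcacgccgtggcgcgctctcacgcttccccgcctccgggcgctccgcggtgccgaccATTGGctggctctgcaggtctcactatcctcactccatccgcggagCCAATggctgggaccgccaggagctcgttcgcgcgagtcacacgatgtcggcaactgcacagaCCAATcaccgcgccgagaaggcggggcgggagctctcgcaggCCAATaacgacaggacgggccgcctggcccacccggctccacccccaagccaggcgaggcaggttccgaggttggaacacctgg
MVK (chr12:109573544-109573843, plus strand): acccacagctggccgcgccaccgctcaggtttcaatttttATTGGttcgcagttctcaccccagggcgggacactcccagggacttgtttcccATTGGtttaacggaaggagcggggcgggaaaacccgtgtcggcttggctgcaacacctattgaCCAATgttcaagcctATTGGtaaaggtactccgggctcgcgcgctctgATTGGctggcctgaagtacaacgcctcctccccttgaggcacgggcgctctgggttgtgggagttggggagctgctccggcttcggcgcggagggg
HSD17B7 (chr1:162790452-162790751, plus strand): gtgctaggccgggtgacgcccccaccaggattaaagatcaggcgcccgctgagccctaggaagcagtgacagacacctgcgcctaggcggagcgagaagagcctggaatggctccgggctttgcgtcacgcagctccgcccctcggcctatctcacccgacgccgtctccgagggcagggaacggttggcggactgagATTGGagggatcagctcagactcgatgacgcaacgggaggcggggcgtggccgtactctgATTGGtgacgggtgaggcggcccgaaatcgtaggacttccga
MYLIP (chr6:16128836-16129135, plus strand): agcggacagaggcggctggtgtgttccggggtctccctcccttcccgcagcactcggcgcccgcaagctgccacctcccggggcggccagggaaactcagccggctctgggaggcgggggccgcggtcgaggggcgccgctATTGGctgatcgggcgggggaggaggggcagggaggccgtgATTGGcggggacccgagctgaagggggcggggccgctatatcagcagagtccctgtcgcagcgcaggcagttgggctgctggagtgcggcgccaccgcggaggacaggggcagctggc
ABCA1 (chr9:104928106-104928405, minus strand): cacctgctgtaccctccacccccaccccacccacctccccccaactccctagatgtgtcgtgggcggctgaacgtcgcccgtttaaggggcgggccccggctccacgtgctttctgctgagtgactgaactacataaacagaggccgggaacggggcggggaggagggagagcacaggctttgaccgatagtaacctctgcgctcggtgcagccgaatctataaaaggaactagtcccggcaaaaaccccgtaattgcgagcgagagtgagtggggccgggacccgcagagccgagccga

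RefSeq windows were found for 26 of the 31 members, 37 windows in all. The SRE-like letters were present in 1 of these 37 windows, that of SREBF2, at bases -133 to -125 from its start, and in 1.13% of all 35116 windows. A shorter core, CACCCCA, which overlaps the longer match in SREBF2, was present in 5 windows (ABCA1, ACLY, MVD, MVK and SREBF2; 13.5%) against 8.08% of all windows. CCAAT was present in 23 of the 37 windows (62.2%) against 34.6% of all windows. Some windows of the same gene overlap, as for ACLY and SC5D, so a site can be counted in more than 1 window. By gene, CCAAT was present in 19 of the 26 members, and the share by gene over all genes was not computed. MVK held 5 CCAAT matches, MSMO1 4, HSD17B7 and MYLIP 2 each, SREBF2 1 and ABCA1 0. The E-box CACGTG was found in 5 windows of 4 genes, among them those of INSIG1 and ABCA1 (13.5% of windows against 7.26% of all windows). A p53 half-site was matched in 3 windows, those of ABCA1, INSIG1 and MVK (8.11% against 6.63% of all windows). These are matches of letters and not measured binding.

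Total counts ran from 13535397 to 19228748 per library, so a count of 0 allowed up to 0.156 to 0.222 CPM, counts scaled to a common library size. CDKN1A, the p21 gene and a known p53 target, stood at 773, 786 and 715 CPM in WT and 231, 251 and 246 CPM in Ctrl. The epithelial keratin genes KRT8 and KRT18 were at 782 CPM or more in every library, while the epithelial genes CDH1, SFTPB and SFTPC, of the same list of 7, did not exceed 0.971 CPM. The summed level of 11 markers of endothelial, blood, liver and fat cells ran from 1.54 to 3.88 CPM, with PTPRC and ADIPOQ at 0 in all 15 libraries. In bulk RNA, fewer cells expressing a gene and less RNA per cell cannot be told apart.

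Together the 31 members took 0.521% to 0.613% of all counts in the 6 libraries of 2023. In 8 libraries of 2022 they took 1.03% to 1.423%, and in p53 replicate 2 they took 0.505%. The stearoyl-CoA desaturase gene SCD and the fatty acid synthase gene FASN made up 46.9% to 56.8% of the members' counts in every library, and the other 29 members gave the same order, at 0.267% to 0.299% in 2023, 0.241% in p53 replicate 2 and 0.537% to 0.630% in the 8 others. Between the years, year and construct change together and cannot be told apart. Within 2022, p53 replicate 2 shares year and construct with p53 replicates 1 and 3 (1.33% and 1.423%) and differs from them in batch by the labels.

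Among members in Ctrl, level per kilobase of exon (mean CPM divided by the exon length of the gene) was highest for SCD, which makes monounsaturated fatty acids, at 343 CPM per kb. FASN followed at 116, SREBF1 at 53.6 and the ATP citrate lyase gene ACLY, which supplies acetyl-CoA, at 49.5 CPM per kb. The sterol enzymes spanned 2.86 (HSD17B7) to 35.5 CPM per kb (FDFT1, squalene synthase). ABCG1, a sterol exporter, was at or under 0.54 CPM in every library of 2023 and was not tested there, which left 30 members tested in WT against Ctrl.

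WT was set against Ctrl to see how these genes respond to p53. The sterol enzyme gene HSD17B7 rose, and it was the 1 member of 30 called by edgeR (quasi-likelihood test, Benjamini-Hochberg adjusted p under 0.05 over 16156 genes). No member fell by that test. The rises called among all genes tested were 3.24% and the falls 0.873%, so 1 rise and 0 falls among 30 members lay near the background. DESeq2 called 4 members, HSD17B7 and ABCA1 higher and SREBF1 and FASN lower, where it called 3.54% of all genes higher and 1.37% lower. The median log2 change of the members was 0.02, beside -0.01 for all genes tested, with 16 members above 0 and 14 below. At unadjusted p under 0.05 there were 4 higher (HSD17B7, ABCA1, SC5D and MSMO1) and 6 lower (SREBF1, FASN, LSS, MVD, FADS2 and SREBF2), where all genes gave 8.94% higher and 9.22% lower. Libraries of WT and Ctrl did not overlap for 3 higher and 4 lower members, where all genes gave 12% higher and 10.5% lower.

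HSD17B7, which encodes a 3-keto-reductase of the late cholesterol pathway (ENSG00000132196; GRCh38 chromosome 1, 162790702 to 162812817, plus strand), was at 21.8, 20.02 and 20.7 CPM in WT and 13.9, 12.6 and 14.5 CPM in Ctrl. All 3 WT libraries lay above all 3 Ctrl libraries, and the change was 1.52-fold, a log2 change of 0.61 ± 0.13 SE, adjusted p = 0.0078. The call was lost when WT replicate 1 was left out (log2 change 0.57, adjusted p = 0.066). HSD17B7 has a near copy, HSD17B7P2, with 14 to 99 counts per library against 224 to 632 for HSD17B7, and how the counting divided reads between them is not known. The copy had 41, 64 and 53 counts in WT and 33, 43 and 14 in Ctrl.

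**Figure D1:**
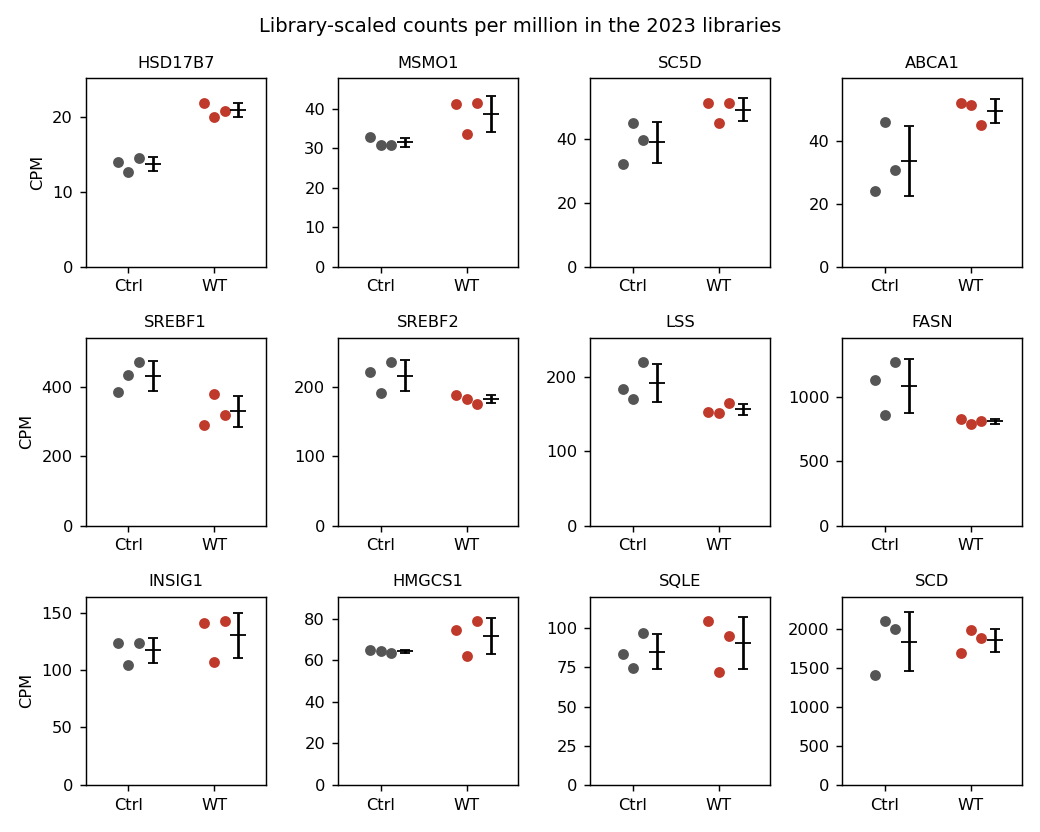
CPM of 12 members in the 2023 libraries, with each vertical axis starting at 0. Points are libraries, and the bar beside them is the mean with its SD (n = 3). HSD17B7 is higher in all 3 WT libraries, and SREBF1, SREBF2, LSS and FASN are lower in all 3, while the points of the other genes shown, MSMO1 aside, overlap.

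The regulators of the pathway gave lower values for both SREBP genes in WT, neither past the test. SREBF1 stood at 289.9, 379.7 and 318 CPM in WT against 386, 435 and 471 in Ctrl, without overlap, at a log2 change of -0.39 ± 0.12 SE, adjusted p = 0.091. SREBF2 was at 187, 183 and 176 CPM against 221, 192 and 235, a log2 change of -0.25 ± 0.11 SE, adjusted p = 0.23. INSIG1, the retention factor and itself a SREBP target, was at 141, 107 and 142 CPM in WT and 123, 104 and 124 in Ctrl, and its groups overlapped (log2 change 0.15, 95% interval -0.10 to 0.41).

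In the mevalonate arm, which runs from acetyl-CoA to farnesyl diphosphate, none of 7 members was called by edgeR or DESeq2, and 1, MVD, was lower at unadjusted p under 0.05. HMGCS1, which makes the HMG-CoA that feeds the arm, was at 74.5, 61.9 and 78.8 CPM in WT and 65.0, 64.6 and 63.4 in Ctrl. Its Ctrl values lie within the range of the WT values (log2 change 0.16, interval -0.07 to 0.38). The isomerase gene IDI1 had a log2 change of 0.20 and the thiolase gene ACAT2 one of -0.01. The kinase genes MVK and PMVK gave -0.29 and -0.13, the decarboxylase gene MVD -0.32 and the farnesyl diphosphate synthase gene FDPS -0.08.

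From squalene to cholesterol, HSD17B7 was the 1 of 9 members called. The oxidase genes MSMO1 and SC5D, which act in the late steps, were also higher without passing the test. MSMO1 was at 41.3, 33.5 and 41.5 CPM in WT and 32.9, 30.7 and 30.9 in Ctrl, so that all WT libraries were above all Ctrl libraries (log2 change 0.30 ± 0.12 SE, adjusted p = 0.18). SC5D was at 51.5, 45.2 and 51.5 CPM against 32.3, 45.2 and 39.7, with the lowest WT and highest Ctrl library almost level (log2 change 0.34 ± 0.12 SE, adjusted p = 0.14). LSS, which encodes lanosterol synthase, went the other way without overlap, at 153, 151 and 165 CPM in WT and 184, 171 and 219.9 in Ctrl (log2 change -0.29 ± 0.11 SE, adjusted p = 0.17). SQLE, squalene epoxidase and a control point of the pathway, was at 104, 72.3 and 94.7 CPM in WT and 83.6, 74.5 and 96.9 in Ctrl (log2 change 0.09, interval -0.18 to 0.36). The intervals of FDFT1, TM7SF2, DHCR7 and CYP51A1 also held 0, with log2 changes from -0.36 (CYP51A1) to 0.02 (FDFT1 and the reductase gene TM7SF2). CYP51A1, a demethylase gene, shares 79.4% of its exon bases in GENCODE 29 with another annotated gene on its strand, which had 0 counts throughout, so its low counts are uncertain.

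Of the transport genes, ABCA1 gave the largest difference. It was at 52.0, 51.5 and 44.9 CPM in WT and 24.1, 46.0 and 30.7 in Ctrl, 1.47-fold higher at a log2 change of 0.56 ± 0.16 SE, adjusted p = 0.059. Ctrl replicate 2, at 46.0 CPM, reached the WT range while the other 2 Ctrl libraries stayed below it. Leaving out Ctrl replicate 2 gave a log2 change of 0.85 (adjusted p = 0.00034), and 7 members were then called, ABCA1, SC5D and HSD17B7 higher and FASN, LSS, MVD and MVK lower. That fit called 4.36% of all genes higher and 3.97% lower, more than with all 6 libraries. ABCA1 was not called when any other library of 2023 was left out. Ctrl replicate 1, the lowest in ABCA1, had a mitochondrial share of counts of 0.680%, against 1.38% to 1.68% in the other libraries of 2023. MYLIP had a log2 change of 0.18 and STARD4, a sterol carrier gene and SREBP target, one of 0.15, neither called.

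Among 8 fatty acid and lipid genes, none was called by edgeR and FASN was called lower by DESeq2. FASN was at 833, 793 and 815 CPM in WT and 1131, 862 and 1272 in Ctrl. The WT libraries were close together and below all Ctrl libraries, Ctrl replicate 2 lying nearest (1.34-fold lower, log2 change -0.42 ± 0.14 SE, adjusted p = 0.095). SCD was at 1695, 1990.0 and 1887 CPM in WT and 1407, 2104 and 2009.5 in Ctrl, with Ctrl replicate 1 the lowest of the 6 (log2 change 0.01, interval -0.29 to 0.32). LPIN1, a phosphatidate phosphatase gene reported elsewhere as a p53 target, was at 131, 124 and 138 CPM in WT and 125, 128 and 134 in Ctrl. These values overlap, and the interval of its log2 change ran from -0.19 to 0.24. ELOVL6, a fatty acid elongase gene, was higher in all 3 WT libraries by a small margin (54.1, 51.6 and 52.8 against 42.9, 50.2 and 47.2 CPM; log2 change 0.17 ± 0.11 SE, adjusted p = 0.40). The desaturase genes FADS1 and FADS2 gave log2 changes of 0.13 and -0.34. The 2 genes lie on opposite strands and share 4.79% of the exon bases of FADS1, and since it is not known whether reads were counted by strand, their reads may be mixed there. ACLY and the acetyl-CoA carboxylase gene ACACA gave -0.04 and -0.06.

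**Figure D2:**
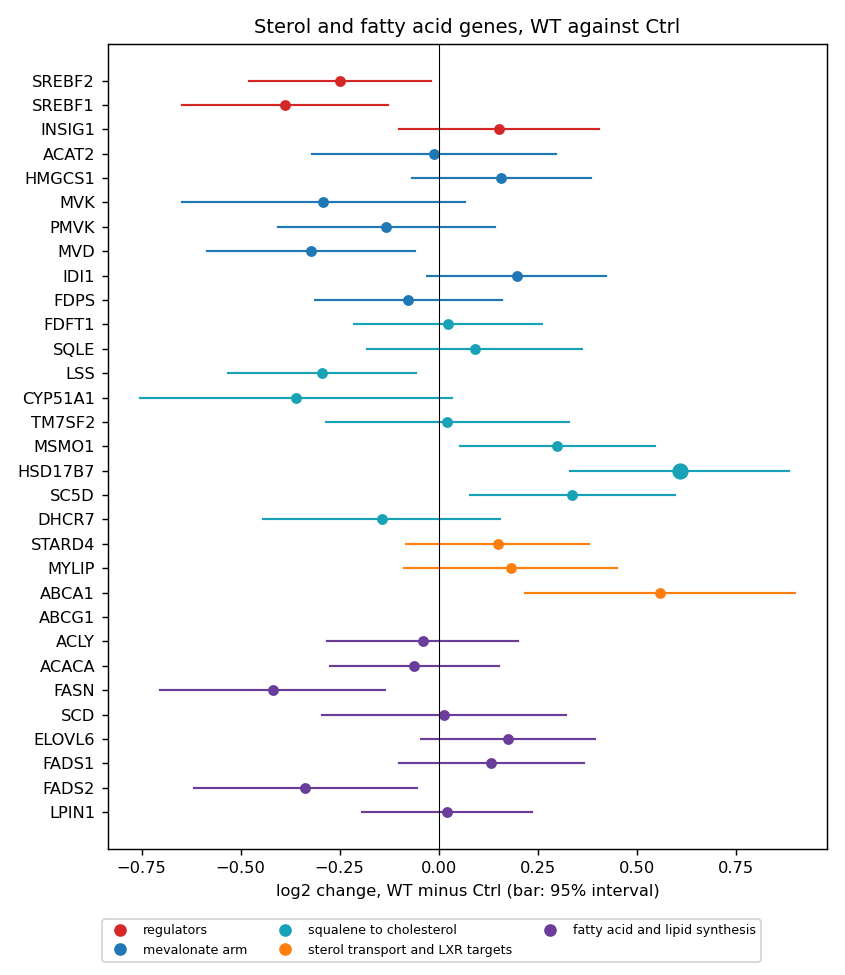
Log2 change of WT against Ctrl for the 30 members tested, coloured by role, with 95% intervals; the large point marks the 1 member called, HSD17B7. Values run from -0.42 (FASN) to 0.61 (HSD17B7), and both SREBP genes lie below 0.

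The GC content of the transcripts moved with these differences. Across 30 members, Spearman's rho between GC content and log2 change was -0.78, and across 15862 genes it was -0.43. These are descriptions over genes of the same 6 libraries. The 14 members below 0 had a median GC content of 58.3% and the 16 above 0 one of 45.6%. With each library's GC trend removed, FASN was at a log2 change of -0.17 (adjusted p = 0.62), SREBF1 at -0.18 (0.58), SREBF2 at -0.10 (0.76), LSS at -0.13 (0.66) and MSMO1 at 0.16 (0.64). HSD17B7 remained called at 0.52 (adjusted p = 0.029), and ABCA1 was at 0.53 (0.15).

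Of 30 further genes of the pathway, 2 were called higher and 1 lower between WT and Ctrl, beside the 3.24% and 0.873% of all genes. SCD5, another stearoyl-CoA desaturase gene, rose 1.62-fold, with means of 21.4 ± 1.85 CPM in WT and 13.2 ± 0.965 in Ctrl (± SD, n = 3; edgeR adjusted p = 0.003). MID1IP1, whose product activates acetyl-CoA carboxylase, rose 1.48-fold, with means of 116 ± 7.36 CPM in WT and 78.4 ± 9.10 in Ctrl (± SD, n = 3; edgeR adjusted p = 0.003). SCAP, the escort that carries SREBP to the Golgi, fell 1.31-fold, with means of 86.3 ± 3.60 CPM in WT and 113 ± 13.4 in Ctrl (± SD, n = 3; edgeR adjusted p = 0.044). Groups did not overlap for any of the 3. The SCAP call was lost with the GC trend removed (log2 change -0.19, adjusted p = 0.38), and without any 1 of WT replicates 1, 2 and 3 and Ctrl replicate 3 (adjusted p from 0.075 to 0.27).

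In the data of 2022, p53 replicate 2 stood apart in the sterol genes. It was the lowest of the 9 libraries for 27 of 31 members and the highest for 2, where over all 17459 genes it was the lowest for 27.5% and the highest for 31.8%. The median log2 ratio of p53 replicate 2 to the mean of p53 replicates 1 and 3 was -1.26 for the members and 0.03 for all genes. With 1 library in that batch no test was made. All 3 regulators, 7 mevalonate genes and 9 sterol enzymes were lowest in it, as were 7 of 8 fatty acid genes.

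The late sterol gene MSMO1 showed the widest gap, at 30.9 CPM in p53 replicate 2 against 229 and 174 in p53 replicates 1 and 3, 6.53-fold lower. MVK was 4.85-fold lower, at 13.1 against 60.5 and 66.3 CPM, and ACAT2 4.57-fold lower, at 51.9 against 263 and 210.2 CPM. ACAT2 shares 9.23% of its exon bases with the opposite-strand gene TCP1, which had 6372 to 11457 counts per library against 801 to 4120. MVK shares 4.72% with MMAB and SREBF1 6.92% with RAI1, also on the opposite strand. As for FADS1 and FADS2, reads may be mixed there. Other steps spread widely, from DHCR7 at 3.91-fold and FADS1 at 3.78-fold lower to TM7SF2 at 1.13-fold. HMGCS1 was at 118 CPM against 343 and 269, SQLE at 107 against 285 and 278 and INSIG1 at 154 against 451 and 392. The transcript of SREBF2 itself was 1.58-fold lower and that of SREBF1 1.22-fold, both less than most of the enzymes. SCD was 2.66-fold lower, FASN 2.57-fold and LPIN1 2.31-fold.

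Of the 3 genes named above as LXR targets, MYLIP and ABCA1 went the other way in that library. MYLIP was at 63.6 CPM against 27.2 and 22.8, and ABCA1 at 109.9 CPM against 72.3 and 68.7, each the highest of 9. ABCG1, at 3.24 CPM against 5.24 and 3.47, did not follow them. CDKN1A and the p53 ubiquitin ligase gene MDM2, the only genes read here as a check of p53 activity, were also higher in p53 replicate 2. CDKN1A was at 723 CPM against 284 and 286, and MDM2 at 368 against 202 and 165. With LLPSEp53_1, CDKN1A was at 399, 423 and 451 CPM, and with LLPSEp53_2 at 270, 281 and 232. Of the 30 further pathway genes, 16 were lowest in it and 4 highest, where over all genes it was the lowest for 27.5% and the highest for 31.8%. The acetyl-CoA synthetase gene ACSS2, named after its value was seen, was 2.34-fold lower. Whether the batch or the p53 target level bears on the sterol genes was not tested.

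**Figure D3:**
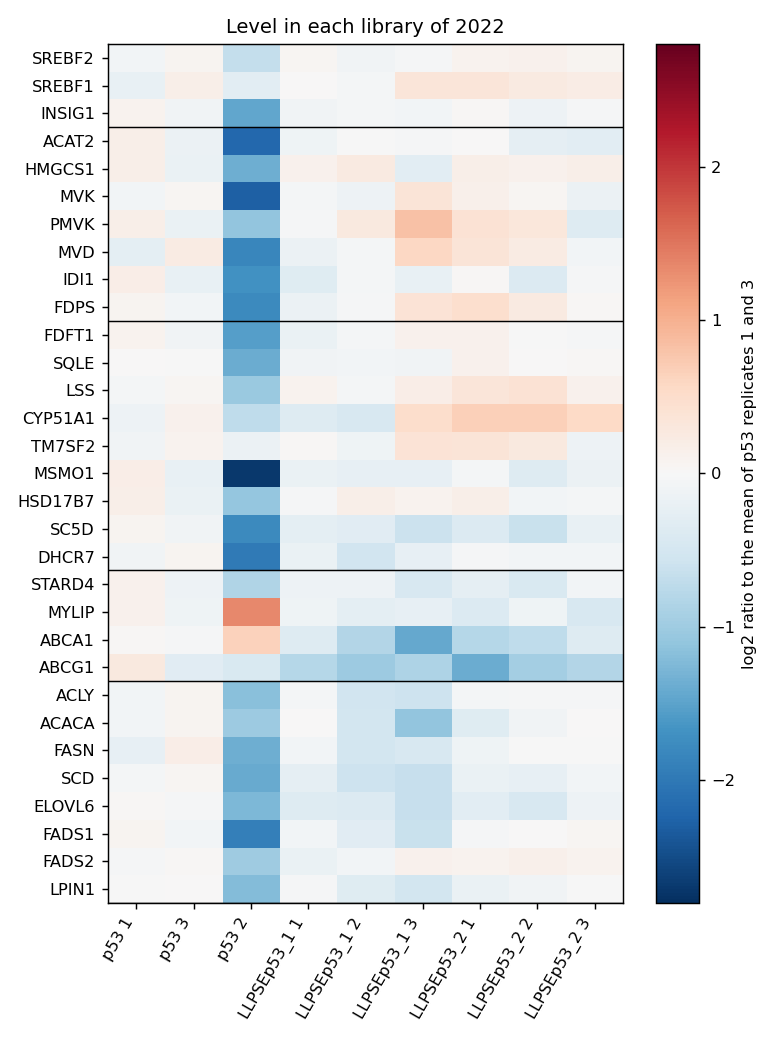
Level of each member in the 9 libraries of 2022, as the log2 ratio to the mean of p53 replicates 1 and 3, with horizontal lines between the role groups. The column of p53 replicate 2 reaches -2.71 for MSMO1 and is blue for all members but MYLIP and ABCA1, which are red.

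Because p53 replicate 2 carried its own batch term, the 2022 comparisons set the constructs against p53 replicates 1 and 3. In LLPSEp53_1 against p53, which tests 1 construct beside the parent protein, no member was called by edgeR or DESeq2, where edgeR called 0.0515% of all genes higher and 0.836% lower and DESeq2 0.252% and 1.23%. At unadjusted p under 0.05, 7 members were lower (SCD, ABCA1, ELOVL6, ABCG1, SC5D, ACLY and DHCR7) and 0 higher, where all genes gave 7.34% lower and 5.72% higher. The median log2 change of the 31 members was -0.09, beside -0.0001 for all genes, with 22 members below 0. Libraries did not overlap for 10 lower and 0 higher members, where all genes gave 14.7% lower and 12.2% higher. With no batch term, so that p53 replicate 2 entered the p53 level, the median was 0.17.

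All 8 fatty acid genes had a log2 change below 0, from -0.49 (SCD) to -0.05 (FADS2) with a median of -0.35, and the 4 transport genes had a median of -0.53. The 7 mevalonate genes had a median of 0.07, and the 9 later sterol genes one of -0.03 with SC5D, DHCR7 and SQLE lower without overlap. The role groups were not tested against each other. SCD was at 4096, 3251 and 3128 CPM with LLPSEp53_1 and 4686 and 5092 with p53, and all 3 libraries were below both p53 libraries (log2 change -0.49 ± 0.14 SE, adjusted p = 0.16). FASN was at 2352, 1734 and 1819.9 CPM against 2110.4 and 2819, and LLPSEp53_1 replicate 1 fell between the 2 p53 libraries (log2 change -0.32, interval -0.67 to 0.03). ELOVL6 was at 90.9, 90.6 and 74.96 CPM against 120.3 and 115, with no overlap (log2 change -0.46 ± 0.15 SE, adjusted p = 0.23). FADS1 was at 285, 239.9 and 195 CPM against 315 and 286, and LPIN1 at 356, 288 and 256 against 361 and 365, both just below p53 in the nearest library. In these genes LLPSEp53_1 replicate 1 was the closest of the 3 to p53, except for FASN where it lay within. Without it, SCD (log2 change -0.62), ABCA1 (-1.09), ACLY (-0.55) and ACACA (-0.78) were called lower, with adjusted p from 0.020 to 0.045, in a fit that called 2.36% of all genes lower.

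ABCA1 was at 54.7, 40.1 and 26.0 CPM with LLPSEp53_1 and 72.3 and 68.7 with p53, below both in each library, at a log2 change of -0.81 ± 0.24 SE, adjusted p = 0.19. ABCG1 was at 2.49, 2.14 and 2.40 CPM against 5.24 and 3.47, a log2 change of -0.89 ± 0.29 SE, adjusted p = 0.23 at a low level. The lowest ABCA1 value was that of LLPSEp53_1 replicate 3, which was also lowest of the 9 libraries in ACACA, at 94.96 CPM, and had the highest share of ribosomal protein counts, 5.91% against 3.88% to 4.12% in p53 replicates 1 and 3. SREBF1 (352, 336 and 441 against 303 and 393 CPM) and SREBF2 (231, 206 and 216 against 209.9 and 234 CPM) overlapped between LLPSEp53_1 and p53. SC5D was at 150.1, 145 and 119 CPM against 192 and 169.7, without overlap (log2 change -0.39 ± 0.16 SE, adjusted p = 0.33). HSD17B7, the gene that rose with WT, had a log2 change of 0.08 (interval -0.27 to 0.42).

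LLPSEp53_2 against p53 shared those p53 libraries, and again 0 members were called by edgeR or DESeq2, beside 0.103% of all genes higher and 1.83% lower by edgeR and 0.333% and 2.63% by DESeq2. At unadjusted p under 0.05, CYP51A1 was higher and ABCG1, SC5D and ABCA1 lower, 1 and 3 of 31 members where all genes gave 4.89% and 7.94%. The members' median log2 change was -0.04, beside 0.01 for all genes, and 0.29 when p53 replicate 2 entered without a batch term. Libraries did not overlap for 4 higher and 6 lower members, near the 15.6% and 17.5% of all genes. ABCA1 was at 40.4, 43.4 and 55.3 CPM (log2 change -0.61 ± 0.24 SE, adjusted p = 0.30), again below both p53 libraries. ABCG1 was at 1.66, 2.27 and 2.45 CPM (log2 change -1.03 ± 0.29 SE, adjusted p = 0.10). SC5D, at 139, 117 and 156 CPM, was below both p53 libraries too (log2 change -0.40 ± 0.16 SE, adjusted p = 0.30).

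The fatty acid genes of LLPSEp53_2 had a median log2 change of -0.07 from p53. SCD was at 4315, 4194 and 4659 CPM, just below the 2 p53 libraries (log2 change -0.16, interval -0.46 to 0.14), and FASN at 2264, 2447 and 2439.9 CPM, between them. CYP51A1 was at 14.7, 14.6 and 13.5 CPM against 8.31 and 10.0 (log2 change 0.64 ± 0.26 SE, adjusted p = 0.32). Fitted with the p53 and LLPSEp53_2 libraries alone, or without LLPSEp53_1 replicate 3, ABCA1 and ABCG1 were called lower and CYP51A1 higher, with adjusted p from 0.012 to 0.046. Those fits called 1.7% of all genes higher and 4.45% lower, and 1.32% and 3.85%, in that order.

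**Figure D4:**
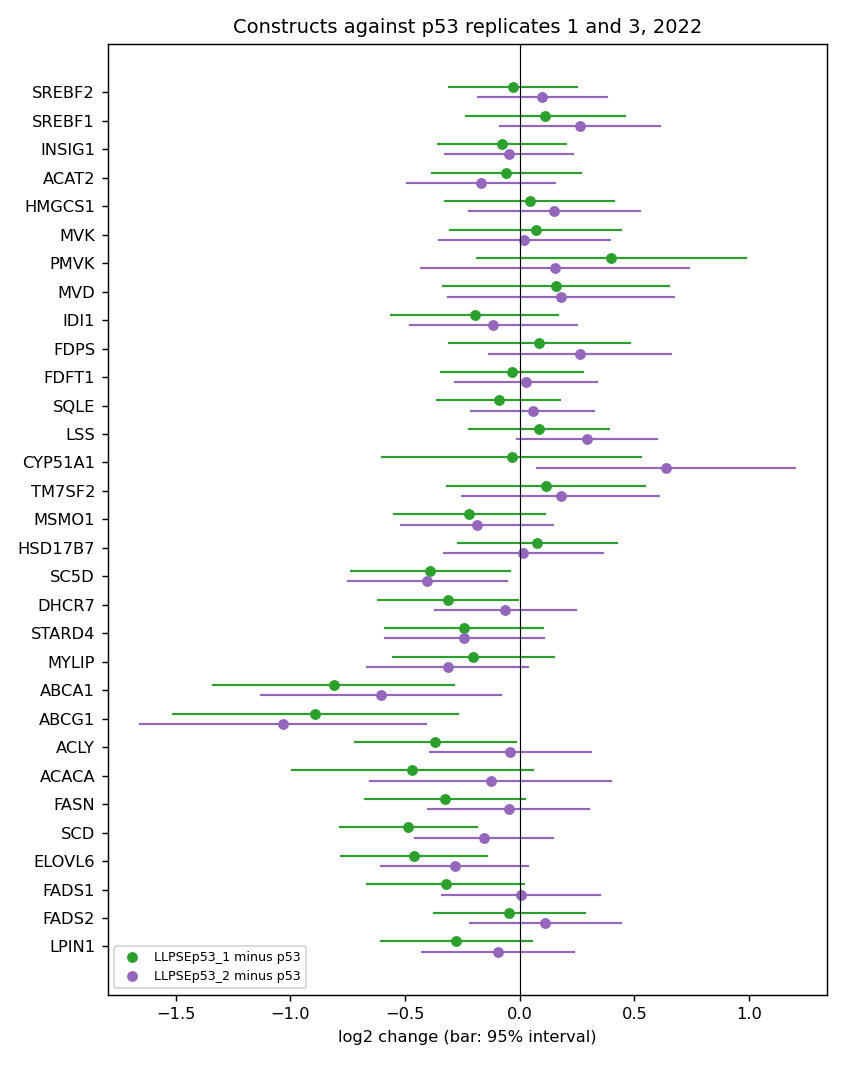
Log2 change of LLPSEp53_1 (green) and LLPSEp53_2 (purple) against p53 replicates 1 and 3 for the 31 members, with 95% intervals. The 2 sets share the p53 libraries; ABCA1 and ABCG1 lie below 0 in both, and SCD is at -0.49 for LLPSEp53_1 and -0.16 for LLPSEp53_2.

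GC content also moved with the members' differences from p53, in the opposite direction to WT against Ctrl. Spearman's rho between GC content and log2 change over the 31 members was 0.39 for LLPSEp53_1 and 0.50 for LLPSEp53_2, and over 17108 genes 0.04 and 0.12. For LLPSEp53_1 the 22 members below 0 had a median GC content of 47.3% and the 9 above 0 one of 58.3%. For LLPSEp53_2 the 16 below 0 were at 46.6% and the 15 above 0 at 57.1%. With GC trends removed, 0 members were called by edgeR in either comparison, and SCD with LLPSEp53_1 was at a log2 change of -0.47 and ABCA1 at -0.80, with ABCA1 at -0.61 for LLPSEp53_2.

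LLPSEp53_2 was also set against LLPSEp53_1 directly. No member was called by edgeR or DESeq2, where edgeR called 0.0229% of all genes higher and 0.349% lower and DESeq2 0.0974% and 0.768%. At unadjusted p under 0.05, CYP51A1, SCD, FADS1 and ACLY were higher with LLPSEp53_2 and 0 lower, where all genes gave 2.73% and 4.5%. Of the 31 members 24 lay above 0, with a median of 0.13 beside -0.0013 for all genes. Libraries did not overlap for 6 higher members and 0 lower, where all genes gave 5.97% and 7.03%. All 8 fatty acid genes were above 0, from 0.16 to 0.34. The LLPSEp53_1 libraries are those also set against p53, so this and the values below 0 there are not independent. The log2 difference of SCD was 0.33 (0.12 as SE, adjusted p = 0.55). That of FADS1 was 0.33 (0.14 as SE, adjusted p = 0.67). That of ACLY was 0.33 (0.15 as SE, adjusted p = 0.68), and LLPSEp53_1 replicate 1 reached the range of the LLPSEp53_2 libraries. For ABCA1 the interval of the difference between the constructs ran from -0.27 to 0.68, and for SREBF2 from -0.12 to 0.38. CYP51A1 had a log2 difference of 0.67 ± 0.23 SE, adjusted p = 0.45. Without LLPSEp53_1 replicate 3, at 12.9 CPM against 7.18 and 6.70 in the other two, the difference was 1.04 and was called (adjusted p = 0.0054), in a fit that called 0.295% of all genes higher.

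Of the 30 further pathway genes, 0 were called by edgeR in any of the 3 comparisons of 2022. At unadjusted p under 0.05 there were 1 higher and 5 lower for LLPSEp53_1 against p53, 0 and 2 for LLPSEp53_2 against p53, and 2 and 1 for LLPSEp53_2 against LLPSEp53_1. At that threshold the first comparison had 5.72% of all genes higher and 7.34% lower, the next 4.89% and 7.94%, and the last 2.73% and 4.5%.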

How the data were processed

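RNA-seq libraries of H1299 cells, made from total RNA, were compared. Reads were trimmed with Trimmomatic 0.39 and aligned with STAR 2.7.10a to GRCh38, per the submitters' processing notes; no source used here names the counting tool, its annotation or its strand setting. Each deposited file gives the raw read count of every gene in 1 library, without scaling by the authors, judging from the values (whole numbers with totals of 13535397 to 19228748). Groups came from the sample titles; the column headers of the LLPSEp53_1 files carry no construct number. Separate cultures are not stated for the replicates, so the p-values reflect spread among libraries that may be technical. Replicates differed by more than counting noise (chi-square of at least 7.46 per degree of freedom).

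Symbols were matched for 61399 of 61552 IDs; positions, exon lengths and GC content came from GENCODE 29. The test was that of edgeR 4.0.16 in R 4.3.3 (TMM scaling, filterByExpr, glmQLFit and glmQLFTest, Benjamini-Hochberg adjustment over all genes, threshold 0.05), and every adjusted p is edgeR's unless DESeq2 is named. WT and Ctrl were fitted on 6 libraries and the 2022 groups together on 9, with a term for the other batch, so that p53 was set by 2 libraries. CPM are counts over TMM-scaled library sizes, scaled separately for each year. The 31 members and all lists were chosen with earlier results of these data known. Described in every library were members called, with an adjusted p among the 3 smallest of a comparison or not overlapping between WT and Ctrl, and SREBF1, SREBF2, INSIG1, ABCA1, LPIN1, HMGCS1, SQLE, FASN and SCD; further pathway genes were named where called, and other members shown per library were chosen after their values were seen. Alternatives were DESeq2 1.42.0, RLE and upper-quartile scaling, no count filter, each library left out, a replicate block, removal of GC trends (98.2% of genes had a GC value in 2023 and 98.0% in 2022), no batch term, and fits on the compared groups only. The steps were tested on simulated data. The level of the overexpressed gene is not reported here.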

Additional observations from a re-analysis of the deposited data

How the results depend on the processing

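The count of members called was small and moved with the settings, and the cause was not tested. For WT against Ctrl it was 1, and became 4 with DESeq2, 4 without a filter on low counts, and from 0 (without WT replicate 1) to 7 (without Ctrl replicate 2) when 1 library was left out. Over all genes 665 were called there, from 356 to 1381 with a library left out. The count over all genes without the filter is not given for WT against Ctrl, so those 4 members have no background beside them. Between LLPSEp53_1 and p53 the members called were 0, 1 without the filter (ABCA1), and 0 to 4 with a library left out; between LLPSEp53_2 and p53 they were 0, 1 without the filter (ABCA1), 3 with only the compared groups in the fit, and 0 to 3; between the constructs they were 0, and 0 to 1. All genes called were 155, 337 and 65 in these 3 comparisons, in that order. They were 258, 507 and 151 with DESeq2, 562, 823 and 235 without the filter, 257, 591 and 105 with GC trends removed, and 64, 1040 and 35 with only the compared groups. With a library left out they ran from 0 to 568, from 93 to 928 and from 21 to 198. With no batch term they were 94 for LLPSEp53_1 against p53 and 3 between the constructs, and the members' median log2 change against p53 was 0.17 for LLPSEp53_1 and 0.29 for LLPSEp53_2. That setting also turned the sign for LLPSEp53_1 against p53 of SC5D, to 0.000326, and of CDKN1A, to -0.0221. Whether same-numbered libraries were paired is not known. Deviations from the group means correlated at 0.20, 0.42 and 0.03 for same-numbered WT and Ctrl libraries, and from -0.40 to 0.26 for differently numbered ones. WT replicates 1 and 2 correlated best with the Ctrl library of their number, and WT replicate 3 with Ctrl replicate 1 (0.26). In 2022 the correlations ran from -0.68 to 0.24 for same-numbered libraries and from -0.31 to 0.63 for differently numbered ones. The p53 group mean included p53 replicate 2, so the p53 deviations also hold its difference from the other p53 libraries and say little about pairing. With the replicate block, 7 members and 1645 genes were called for WT against Ctrl, and 40, 183 and 33 genes in the 2022 comparisons. With the replicate block and GC trends removed, 2 members were called for WT against Ctrl, HSD17B7 and ABCA1. The count over all genes is not given for that fit, so the 2 have no background beside them. In 2022 the replicate block with GC trends removed gave 33, 206 and 36 genes. The shorter SRE core gave 5 promoter windows in place of 1. The level that 3 counts give, 0.156 to 0.222 CPM, limits ABCG1 in 2023.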
